A study of Mus musculus with 10 samples.

Results

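The genes described here encode 10 proteins through which a cell detects foreign or misplaced nucleic acid and passes the signal on. They were chosen by name, and all 10 were found by their GENCODE M21 symbols among the 14106 genes measured in brain endothelial cells (BECs). Bulk RNA sequencing covered BECs isolated from cortices of female mice aged 1 year on the C3H/BL6 background, as 5 APP/PS1 libraries and 5 control libraries labelled WT. APP/PS1 mice carry mutant human amyloid and presenilin transgenes and deposit Aβ in the brain, and BECs were enriched with CD31 microbeads after perfusion, dissociation and myelin removal. The sources used here do not say whether mice were pooled for a library, so the spread between libraries may be technical. Each SD and p-value measures only the spread left after the authors' batch correction. The libraries were compared in 5 pairs of the same replicate number, since the labels place the control and APP/PS1 library of a number in the same batch.

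RIG-I-like receptors are helicases that bind viral or misplaced RNA in the cytosol and signal through MAVS on mitochondria. The enzyme cGAS binds cytosolic DNA and makes a cyclic dinucleotide that activates STING, and TLR3 binds double-stranded RNA in endosomes. These routes meet at the kinase TBK1, which activates interferon regulatory factors, and interferon in turn induces several of the sensors. The question was whether RNA of the sensing machinery itself differed with the APP/PS1 genotype.

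Differences in these 10 genes were small, and none passed the test. Levels are given as log2 CPM, counts scaled by an effective size of each library on a log2 scale, to which the deposited values add a mean prior count of 3. That size differed from the library total, which was used as an alternative scaling (library size alone). A log2 fold change is the mean over the 5 pairs of APP/PS1 minus control. In the limma model with the replicate number as a block, 0 of the 10 genes had an adjusted p under 0.05, against 0% of all 14106 genes, and limma-voom also called 0 genes. At an unadjusted p under 0.05 the count was again 0 of 10, compared with 1133 of all genes, 2.13% in the higher and 5.91% in the lower direction. With library size alone as the scaling, these shares of all genes were 1.11% and 6.95%. The mean difference was above 0 in 6 of the 10 genes, compared with 48.2% of all genes, and the median log2 fold change was 0.04, beside −0.00 for all genes. That median of the 10 genes was 0.0029 with library size alone, where the median of all genes was −0.04, and 0.07 without replicate 4. Only Ifih1 was higher in all 5 pairs, as were 2.99% of all genes, and 0 of the 10 were lower in all pairs, as were 5% of all genes. Ifih1 was also the only member whose groups did not overlap, which held for 2.91% of all genes in the higher and 4.96% in the lower direction.

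The deposited values carry a batch correction that shapes these numbers. Pair means were almost equal, with a median SD over genes of 0.00353 log2 units, compared with 0.0863 for a library's distance from its pair mean. A high APP/PS1 value therefore stood beside a low control value of the same number, and the count of genes higher without overlap, 411, was close to the 422 higher in every pair. For the same reason the control and APP/PS1 SDs of each sensor gene were close to each other. Spread shared by the libraries of a pair is no longer in these SDs, and paired libraries are not independent. Library totals lay between 22371766 and 126686149 adjusted counts, lowest in pair 1. Endothelial markers dominated every library, with the 15 listed markers summing to between 26864 and 29416 CPM, compared with 56.1 to 73.5 CPM for the 12 microglia and leukocyte markers analysed (Aif1, Itgam and Tyrobp were not). The 10 mural markers summed to between 323 and 1042 CPM, and the 10 astrocyte markers to between 271 and 322 CPM. Markers of several other cell types were lower on average in APP/PS1 libraries. Median log2 fold changes were −0.76 over 10 mural, −0.98 over 10 astrocyte, −0.29 over 5 neuron, −1.16 over 4 erythroid and −2.11 over 8 oligodendrocyte genes. The 12 microglia and leukocyte genes had a median of −0.01. Summed oligodendrocyte markers were higher by 1.80 log2 units in pair 2 and lower in the other pairs. In pairs 4 and 5 summed erythroid markers were higher by 0.76 and 2.38, and summed astrocyte markers by 0.23 and 0.13. Both sums were lower in the other pairs. The astrocyte sum mostly reflects Gja1 and Fgfr3, at 7.09 and 6.75 log2 CPM in control libraries. It does not follow the list, whose median difference was −2.60, 0.45, −1.53, −0.85 and −0.20 in pairs 1 to 5. The part of these other cells in the values below was not tested, and in bulk RNA fewer cells of a type and less RNA per cell cannot be told apart.

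Type I interferon acts on its target genes through the interferon-stimulated response element, searched here as GAAANNGAAA on both strands. Promoter windows of RefSeq on GRCm38.p6, from 250 bases before to 50 after the start, were at hand for 7 of the 10 genes, and 3 of them held the motif, compared with 3.99% of the 27025 genes with a window. Dhx58, Tmem173 and Zbp1 had no window and were not searched. All 3 matches, those of Ddx58, Ifih1 and Eif2ak2, are shown. Each is read 5′ to 3′ on the gene's strand, which is the minus strand for all 3, and capitals mark the motif or, in Ddx58, its reverse complement.
Ddx58: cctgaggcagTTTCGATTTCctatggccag
Ifih1: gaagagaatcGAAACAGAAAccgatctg
Eif2ak2: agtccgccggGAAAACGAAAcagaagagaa
These stretches lie at chr4:40239804-40239833 (Ddx58), chr2:62646206-62646233 (Ifih1) and chr17:78882535-78882564 (Eif2ak2). Counted with the RefSeq start as base 1, the motif began at base 3 in Ddx58, base 33 in Ifih1 and base 19 in Eif2ak2. In Ifih1 it began 12 bases before the nearest start of a coding transcript in GENCODE M21. The windows of Mavs, Cgas, Tlr3 and Tbk1 did not hold these letters, which says nothing of sites elsewhere.

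Among the cytosolic RNA sensors, Ifih1 encodes MDA5, a receptor for long double-stranded RNA (ENSMUSG00000026896, chromosome 2, 62595798 to 62646255 of GRCm38). Ifih1 was at 6.77, 6.84, 6.84, 6.84 and 6.82 log2 CPM in control libraries 1 to 5 and at 6.97, 6.90, 6.91, 6.90 and 6.93 in the APP/PS1 libraries. All APP/PS1 values lay above the highest control value, and the largest difference, 0.21, was that of pair 1. Its log2 fold change was 0.10 (standard error 0.0451, 95% interval −0.01 to 0.21), a level 7.26% higher, with an adjusted p of 0.673 by limma. The unadjusted p was 0.0675 by limma, and it was under 0.05 in 5 of 13 alternative fits. The adjusted p by limma was 0.0504 in the fit without a replicate block and 0.369 or more in all fits with a block. Without a block, paired libraries are treated as independent, which they are not after the batch correction. The standard error was then 0.0245, and the p-values of that fit are too small.

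Ddx58 encodes RIG-I, which recognises RNA with a 5′ triphosphate (ENSMUSG00000040296, chromosome 4, 40203773 to 40239828). Its values were 6.73, 6.79, 6.73, 6.82 and 6.74 log2 CPM in control and 6.85, 6.79, 6.85, 6.77 and 6.85 in APP/PS1 libraries. APP/PS1 replicates 1, 3 and 5 lay above every control library, replicate 2 differed from its control by 0.00 log2 units, and replicate 4 lay below its own. For Ddx58 the log2 fold change was 0.06 (standard error 0.0490, 95% interval −0.06 to 0.18, adjusted p = 0.839 by limma).

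Dhx58 encodes LGP2, a helicase that lacks the signalling domains of the other two receptors and modulates them (ENSMUSG00000017830, chromosome 11, 100694884 to 100704271). It was at 3.62, 3.34, 3.64, 3.55 and 3.58 log2 CPM in control and 3.60, 3.84, 3.56, 3.67 and 3.63 in APP/PS1 libraries. The groups overlapped, and pair 2 alone supplied a difference of 0.50 while the other 4 lay between −0.08 and 0.13. On average the log2 fold change was 0.11 (standard error 0.0936, 95% interval −0.12 to 0.34, adjusted p = 0.843 by limma), and 0.02 without replicate 2. A stretch of 141 exonic bases is shared with Dhx58os on the opposite strand, and whether the counting used strand is not stated.

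Eif2ak2 encodes PKR, a kinase that is activated by double-stranded RNA and halts translation by phosphorylating eIF2α (ENSMUSG00000024079, chromosome 17, 78852564 to 78882573). It measured 6.16, 6.20, 6.22, 6.34 and 6.23 log2 CPM in control and 6.41, 6.37, 6.35, 6.22 and 6.35 in APP/PS1 libraries. In 4 pairs the APP/PS1 library lay above every control library, whereas in pair 4 it was lower by 0.11. As a log2 fold change this was 0.11 (standard error 0.0641, 95% interval −0.04 to 0.27, adjusted p = 0.766 by limma). Without replicate 4 it was 0.17. Pair 4 was also the pair in which Ddx58 was lower, so that of Ddx58, Ifih1 and Eif2ak2 only 1 was higher there, compared with 3 in each other pair. In pair 2, however, Ddx58 was higher by only 0.0013 log2 CPM, a difference near 0. In the 4 pairs without replicate 4, 4 members were higher throughout (Ddx58, Ifih1, Eif2ak2 and Tbk1), beside 6.27% of all genes, but that pair was singled out after the values of these genes were seen. On the opposite strand Gm26637 shares 174 and n-R5s29 shares 47 exonic bases with Eif2ak2.

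**Figure D1:**
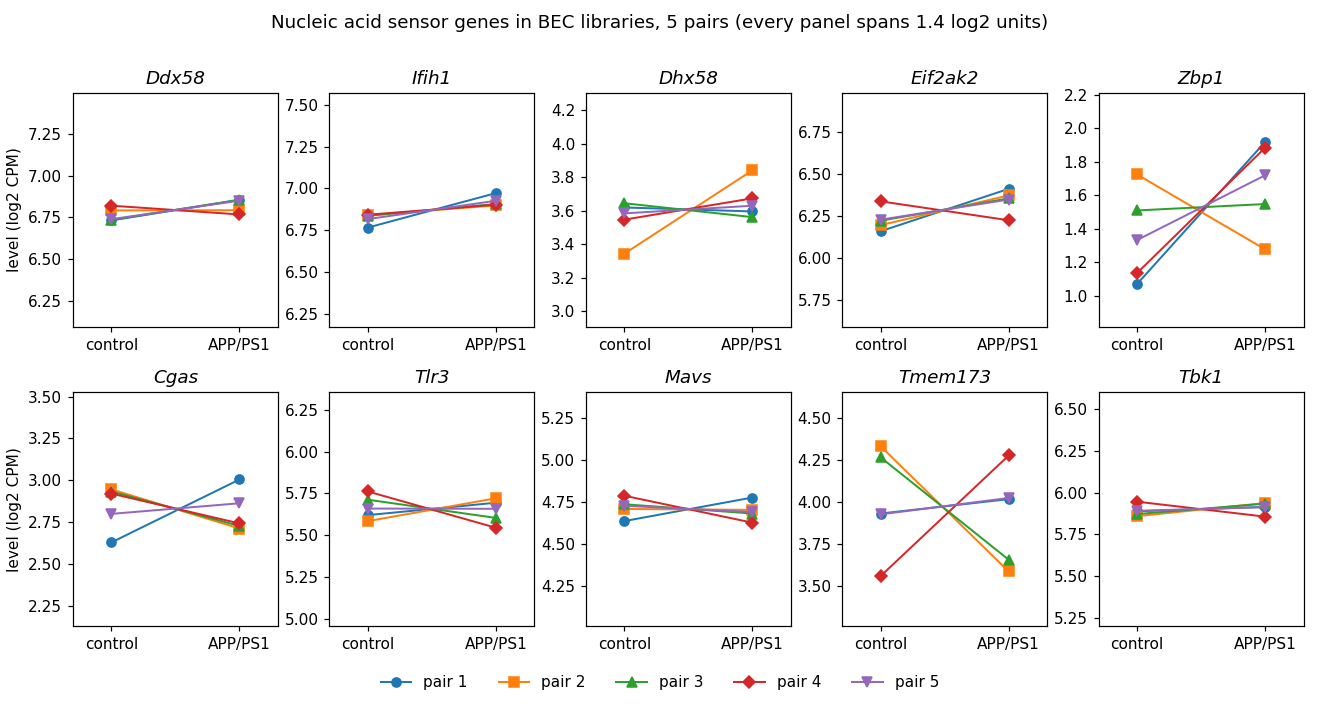
Level of each sensor gene in log2 CPM (vertical axis, the same height of span in every panel) in the control and APP/PS1 library of each pair, joined by a line. The 5 lines of Ifih1 all run upwards, from at most 6.84 in control to at least 6.90 in APP/PS1 libraries, while those of Tmem173 cross.

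Zbp1 encodes a sensor of left-handed double-stranded nucleic acid that can start necroptosis (ENSMUSG00000027514, chromosome 2, 173206612 to 173218923). It had the lowest level and the largest mean difference of the 10 genes. Its values were 1.07, 1.73, 1.51, 1.14 and 1.33 log2 CPM in control and 1.92, 1.28, 1.55, 1.88 and 1.72 in APP/PS1 libraries. Pairs 1 and 4 differed by 0.85 and 0.75, pair 3 by 0.04, and in pair 2 the APP/PS1 library was lower by 0.45. Over the 5 pairs the log2 fold change was 0.32 (standard error 0.202, 95% interval −0.18 to 0.81, adjusted p = 0.801 by limma), which was smaller than the SD of the pair differences, 0.53. Without replicate 2 it was 0.51, with an unadjusted p of 0.0231 and an adjusted p of 0.295 by limma, and without replicate 1 it was 0.18. The smallest library value of Zbp1 stood for 48 adjusted counts.

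Cgas encodes the cytosolic DNA sensor cGAS (ENSMUSG00000032344, chromosome 9, 78430526 to 78443237). Its level was 2.63, 2.95, 2.93, 2.92 and 2.80 log2 CPM in control and 3.00, 2.71, 2.73, 2.74 and 2.86 in APP/PS1 libraries. Pairs 1 and 5 were higher and pairs 2, 3 and 4 lower in APP/PS1 mice, and the groups overlapped. The pseudogene Gm8093 shares 201 exonic bases with Cgas on the opposite strand. On average the log2 fold change was −0.04 (standard error 0.104, 95% interval −0.29 to 0.22, adjusted p = 0.957 by limma).

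Tmem173 encodes STING, the adaptor of cGAS in the endoplasmic reticulum (ENSMUSG00000024349, chromosome 18, 35733679 to 35740554). It varied more between libraries than any other member. Its values were 3.93, 4.33, 4.27, 3.56 and 3.93 log2 CPM in control and 4.02, 3.59, 3.66, 4.28 and 4.02 in APP/PS1 libraries. The APP/PS1 library was lower by 0.75 and 0.61 in pairs 2 and 3, higher by 0.72 in pair 4, and higher by 0.09 and 0.10 in pairs 1 and 5. Of 1977 genes within 0.5 log2 CPM of its level, 97.9% had a smaller SD of the pair differences than the 0.60 of Tmem173. As a log2 fold change this was −0.09 (standard error 0.226, adjusted p = 0.948 by limma), and the 95% interval from −0.65 to 0.47 leaves room for a change in either direction. Without replicate 2 the value was 0.07, and without replicate 3 it was 0.04.

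Tlr3 encodes the endosomal receptor of double-stranded RNA (ENSMUSG00000031639, chromosome 8, 45395665 to 45411080). It was at 5.62, 5.58, 5.71, 5.76 and 5.66 log2 CPM in control and 5.69, 5.72, 5.60, 5.54 and 5.66 in APP/PS1 libraries. It was higher in 2 pairs and lower in 3, by 0.22 at most. Over the 5 pairs the log2 fold change was −0.02 (standard error 0.0654, 95% interval −0.18 to 0.14, adjusted p = 0.955 by limma). Gm45542, an antisense gene, shares 381 exonic bases with Tlr3.

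Mavs encodes the mitochondrial adaptor of RIG-I and MDA5 (ENSMUSG00000037523, chromosome 2, 131234063 to 131248025). The control libraries were at 4.64, 4.71, 4.74, 4.79 and 4.73 log2 CPM and the APP/PS1 libraries at 4.78, 4.70, 4.68, 4.63 and 4.69. It was lower in 4 pairs and higher by 0.14 in pair 1. On average the log2 fold change was −0.02 (standard error 0.0560, 95% interval −0.16 to 0.11, adjusted p = 0.945 by limma).

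Tbk1, the kinase on which the adaptors converge (ENSMUSG00000020115, chromosome 10, 121546455 to 121586787), measured 5.89, 5.86, 5.87, 5.95 and 5.89 log2 CPM in control libraries. The APP/PS1 libraries were at 5.91, 5.94, 5.93, 5.86 and 5.91. It was higher in 4 pairs and lower by 0.09 in pair 4. As a log2 fold change this was 0.02 (standard error 0.0457, 95% interval −0.09 to 0.13, adjusted p = 0.943 by limma). This is the narrowest span of pair differences after that of Ifih1, with an SD of 0.07 compared with 0.06. The sign of the Tbk1 value depended on the scaling, being −0.02 with library size alone.

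**Figure D2:**
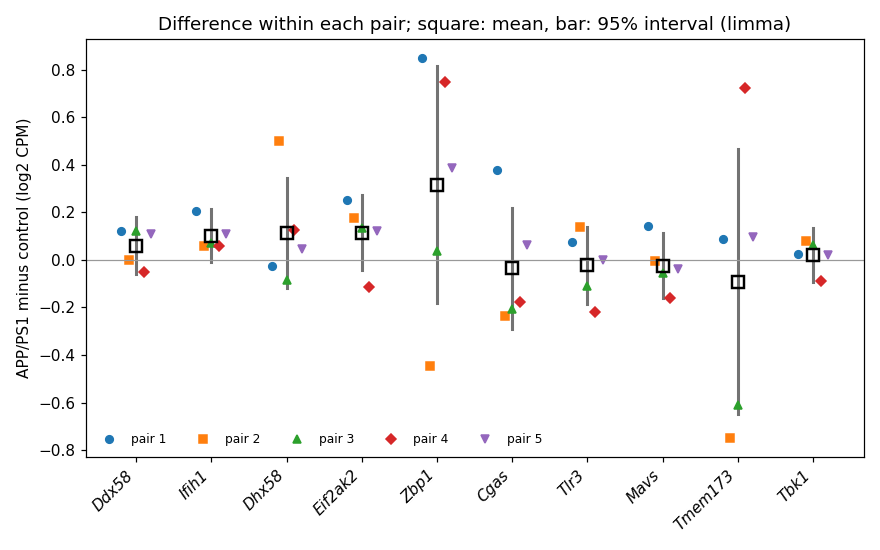
Difference between the APP/PS1 and the control library of each pair in log2 CPM (vertical axis) for the 10 sensor genes, with the mean as an open square and the 95% interval of limma as a bar. Every interval includes 0, and the intervals of Zbp1 (−0.18 to 0.81) and Tmem173 (−0.65 to 0.47) are the widest.

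By pair, the median difference of the 10 genes was 0.13 in pair 1, 0.03 in pair 2, −0.01 in pair 3, −0.07 in pair 4 and 0.08 in pair 5 (log2 CPM). The number of members that were higher in the APP/PS1 library ran from 4 in pair 4 to 9 in pair 1. In the same pairs the median over all genes lay between −0.01 and 0.00. The summed level of the microglia and leukocyte markers differed by 0.22, 0.05, −0.22, 0.12 and −0.39 log2 units in pairs 1 to 5, and that of the mural markers by −1.69, −0.32, −0.42, −1.36 and 0.01. The part of either in the values of the members was not tested.

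To compare the genes with each other, levels were divided by the exonic length in kilobases (kb). In control BECs, Ddx58 was highest at 3.95 ± 0.04 log2 CPM per kb (SD, n = 5), followed by Tbk1 at 3.92 ± 0.03, Eif2ak2 at 3.87 ± 0.07 and Ifih1 at 3.79 ± 0.03. Among these 4 the order was not firm, since Ddx58 exceeded Tbk1 in 8 of 10 libraries and Tbk1 exceeded Eif2ak2 in 5 of 10. All 4 lay above the median gene at 2.39, as did Tlr3 at 3.29 ± 0.07, Mavs at 2.98 ± 0.06 and, within its spread, Tmem173 at 2.55 ± 0.31. Dhx58 at 1.84 ± 0.12, Cgas at 0.80 ± 0.13 and Zbp1 at −0.46 ± 0.27 lay below it. Steps from Ifih1 down to Tmem173 and from Dhx58 down to Zbp1 were kept in 10 of 10 libraries, and Tmem173 exceeded Dhx58 in 9 of 10. Because the batch correction made pair means almost equal, these SDs and counts leave out the spread between pairs. The RNA sensors RIG-I, MDA5 and PKR were thus represented by more RNA per length in BECs than the DNA sensor cGAS. The length counts all annotated exons of a gene, so isoform use could move these levels.

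**Figure D3:**
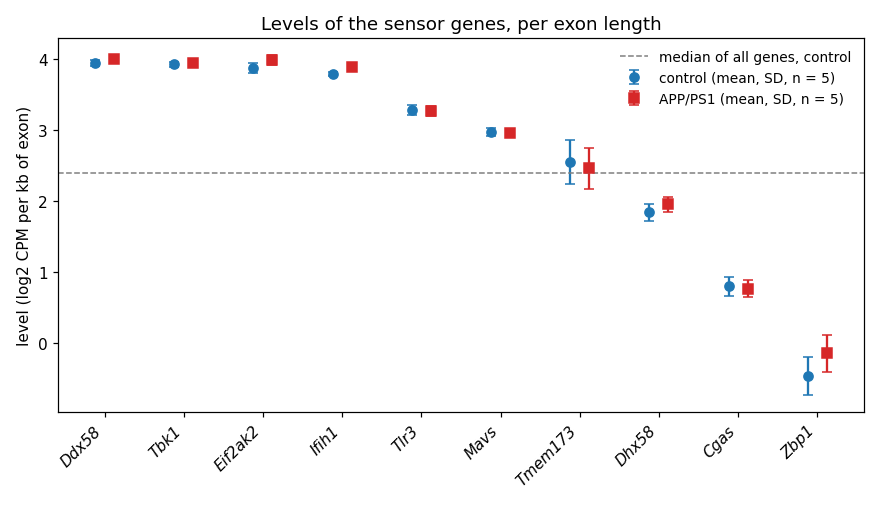
Level per exonic length in log2 CPM per kb (vertical axis) of the 10 genes in control and APP/PS1 libraries, as mean and SD of 5 libraries each. The order runs from Ddx58 at 3.95 to Zbp1 at −0.46 in control libraries, and the dashed line marks the median of all genes at 2.39.

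Beyond the 10 genes, 110 genes of the same pathways were listed by role, of which 91 were analysed. Their median log2 fold change was 0.02, and 53 of the 91 were above 0 on average, beside 48.2% of all genes. By limma 0 of them passed an adjusted p under 0.05. At an unadjusted p under 0.05, 2 of the 91 were higher and 0 lower, beside 2.13% and 5.91% of all genes. These were Dhx29, an RNA helicase of translation initiation that has been linked to MDA5, and Irf7, the interferon regulatory factor that amplifies the interferon response. Irf7 averaged 6.11 ± 0.11 log2 CPM among controls and 6.39 ± 0.12 in APP/PS1 libraries (SD, n = 5 per group). Its difference of 0.28 had a standard error of 0.0936 and an adjusted p of 0.571 by limma, and 4 of 5 pairs were higher. Dhx29 was higher by 0.11 (standard error 0.0391, adjusted p = 0.581 by limma), with differences between 0.09 and 0.13 in all 5 pairs. In every pair, 3 of the 91 genes were above 0 and 1 was below, beside 2.99% and 5% of all genes. Besides Dhx29, those above 0 were Adar, which edits double-stranded RNA of the cell itself, and the scavenger receptor gene Scarb1, at 0.10 and 0.07. Their smallest pair differences were 0.014 and 0.0003. Zdhhc3, a palmitoyltransferase gene, was below 0 in every pair at −0.06, with −0.0026 in pair 2. The latter 3 genes were singled out after their values were seen.

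Of 20 adaptors and regulators of the RIG-I-like receptors, 13 had a mean difference above 0, and their median was 0.03. The strongest expressed was the helicase gene Ddx3x at 10.14 log2 CPM in control libraries, which also had the largest difference, 0.15, and was higher in 4 of 5 pairs. Among 13 genes of the cGAS-STING axis and other DNA sensors analysed, 11 were below 0 on average and 2 above, where 48.2% of all genes were above 0. The median was −0.03, and 0 of the 13 had an unadjusted p under 0.05 by limma. In that list Trim56, a ubiquitin ligase gene, was the strongest expressed at 7.67 log2 CPM with a log2 fold change of 0.05, and Nlrc3, a negative regulator of STING, had the largest at −0.43 (standard error 0.199, adjusted p = 0.684 by limma). Nlrc3 was lower in 3 of 5 pairs, and its lowest library stood for 18 adjusted counts.

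For the endosomal receptors, 12 of 16 listed genes were analysed and Tlr7, Tlr8, Tlr9 and Tlr13 were not. The 12 had a median log2 fold change of −0.03, with 5 above 0. Hsp90b1, the chaperone that Toll-like receptors need to fold, was at 9.08 log2 CPM with a log2 fold change of 0.06, and the co-receptor gene Cd14 had the largest at −0.31, with pairs from −1.64 in pair 2 to 0.96 in pair 4. Of 13 partners of TBK1 and transcription factors, 8 were above 0, with a median of 0.04. The autophagy receptor gene Tax1bp1 was the strongest expressed of these at 7.88 log2 CPM, with a log2 fold change of −0.00.

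The 7 genes of necroptosis downstream of ZBP1 had a median log2 fold change of 0.08, with 6 above 0. Cflar, an inhibitor of caspase 8, was the strongest expressed at 7.52 log2 CPM with a difference of 0.06, and Ripk3, the kinase that ZBP1 engages, had the largest at 0.16 (standard error 0.0819, adjusted p = 0.730 by limma). On the eIF2α kinase axis 9 of 12 genes were above 0, with a median of 0.02. The transcription factor gene Atf3 was at 10.45 log2 CPM with a difference of 0.08, and Ddit3, a stress-induced factor downstream of eIF2α, had the largest at 0.16 in 3 of 5 pairs. Of 12 genes that remove or edit the cell's own nucleic acid, 8 were above 0, and the median was 0.03. Samhd1, which hydrolyses dNTPs, was at 7.47 log2 CPM with a difference of 0.02. Rnaset2b, a ribonuclease gene at 0.62 log2 CPM, had the largest at 0.42. Its sequence is close to that of Rnaset2a, so its counts are uncertain. Of 8 interferons and chemokines made downstream only 2 were analysed. Cxcl10, a chemokine gene, averaged 4.55 ± 0.36 log2 CPM among controls and 4.80 ± 0.41 in APP/PS1 libraries, and it was higher in 4 of 5 pairs (log2 fold change 0.25, standard error 0.286, adjusted p = 0.880 by limma). Il6 had a log2 fold change of 0.15.

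**Figure D4:**
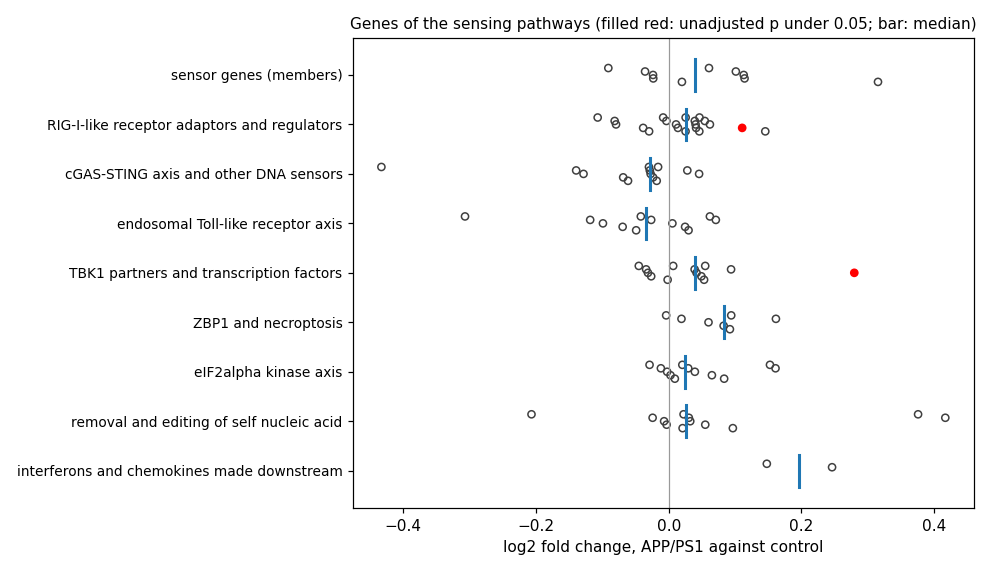
Log2 fold change of each analysed gene (horizontal axis, APP/PS1 against control) in the sensor genes and 8 lists of their pathways, with the median of each list as a bar. Filled points mark the only genes with an unadjusted p under 0.05, Dhx29 at 0.11 and Irf7 at 0.28.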

How the data were processed

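The authors used STAR (mm10) for alignment, HTSeq-count for counting, edgeR for filtering and scaling and ComBat for batch correction, and deposited log2 CPM per library, also as 10 single-library files that equalled the table. Versions are not given in the sources used here. The values converted back to whole adjusted counts with a mean prior count of 3. They are not reads, and their counting error was not estimated. They summed to 22371766 to 126686149 per library.

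The members, gene lists and tests were chosen with earlier results of these data known. limma 3.58.1 in R 4.3.3 (lmFit, eBayes) was fitted to all 14106 genes with genotype and replicate number as terms, leaving 4 residual degrees of freedom, with Benjamini-Hochberg adjustment and a threshold of 0.05, and was tested on simulated data. The labels name 4 batches, replicates 4 and 5 sharing 1. The block used all 5 numbers because the deposited values were nearly centred in each of the 5 pairs. As a check, rank correlations across 10873 genes between the deviations of paired libraries lay from −0.999 to −0.989, a sign that equal pair means fix. The smallest p that an exact two-sided sign-flip test of 5 pairs allows is 0.0625. From the lists, genes named were those with an unadjusted p under 0.05, the strongest expressed and the most changed. Symbols, positions and exons came from GENCODE M21 (GRCm38). Alternatives were no block, 4 batches, other scalings, a filter, a prior count of 0.5, a variance trend, voom and each replicate left out.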

Additional observations from a re-analysis of the deposited data

How the results depend on the processing

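Without the replicate block, 2 of the 10 sensor genes (Ifih1 and Eif2ak2) and 21.6% of all genes had an unadjusted p under 0.05 by limma, and 648 of all genes an adjusted p under 0.05. That fit has 8 residual degrees of freedom in place of 4 and treats paired libraries as independent. Because the batch correction made pair means almost equal, its standard errors and p-values are too small, and its calls cannot be relied on. The 4 batches of the labels gave 1 sensor gene (Ifih1) and 11.4% of all genes at the unadjusted threshold and 1 gene of all at the adjusted one. Centring each library on its median, a variance trend and limma-voom each gave 1 sensor gene, Ifih1, beside 7.27% to 8.23% of all genes. With each replicate left out in turn, 0 to 1 sensor genes and 5.3% to 14.2% of all genes passed the unadjusted threshold (Zbp1 without replicate 2, Eif2ak2 without replicate 4) and 0 to 5 of all genes the adjusted one (5 without replicate 2, 1 without replicate 5). The number of sensor genes higher in every pair was 0 with library size alone (1.49% of all genes) and 1 to 4 with replicates left out, which asks for 4 pairs in place of 5 (2 beside 11.8% of all genes without replicate 2, 4 beside 6.27% without replicate 4). In the fit without a block the mean differences are the same as in the main fit. Its larger counts follow from the smaller standard errors and the added degrees of freedom. The cause of the other shifts was not tested. The log2 fold change of Tbk1 was −0.0174 with library size alone. With replicates left out, the sign turned within −0.0648 to 0.0106 for Mavs, −0.29 to 0.0733 for Tmem173, −0.14 to 0.0138 for Cgas and −0.0634 to 0.0251 for Tlr3. Ddx58, Ifih1, Dhx58, Zbp1 and Eif2ak2 stayed above 0 in all 13 alternatives, and no sensor gene had an adjusted p under 0.05 in any of them. The depth behind Zbp1, from 48 to 404 adjusted counts, was the lowest of the set.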

Other observations

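For 2 sensor genes the pair differences are set beside those of a listed pathway gene. Both sets were picked because their values looked alike, so the likeness shows nothing about other genes. The differences of Zbp1 in pairs 1 to 5 were 0.85, −0.45, 0.04, 0.75 and 0.39 log2 CPM, and those of Cxcl10 were 0.55, −1.03, 0.15, 0.87 and 0.70, so that pair 2 was the only pair below 0 in both. The differences of Tmem173 were 0.09, −0.75, −0.61, 0.72 and 0.10, beside −0.45, −1.64, −0.83, 0.96 and 0.42 for Cd14, with pairs 2 and 3 below 0 and pair 4 highest in both. In 20 groups of 5 libraries (the sensor genes in each genotype), 0 libraries lay farther from their nearest neighbour than 0.71 of the group's range. About 1 group would by chance if the groups were independent. They are not, since the batch correction made pair means almost equal, so this count cannot show that no library is odd.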
